A study of Homo sapiens with 6 samples.

Results

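The 36 genes described here, called members below, are ATF4, a basic leucine zipper transcription factor, and genes known as its targets or partners in the response of cells to a shortage of amino acids. They were taken as a list of gene names by their known role, chosen with earlier results of these data known. A probe set is the group of short probes that an array uses to read 1 transcript. Of the 36 genes, 35 had a probe set with their symbol as its only symbol, among 19775 such genes on the array, and GPT2 was not analysed here. These 35 genes were read by 72 probe sets, and 22 of them had more than 1. For each gene the brightest probe set over all arrays was used, and the 35 were all bright enough to be tested among 12735 genes.

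RNA levels were measured on 6 oligonucleotide arrays in RT-112, an established human bladder cancer cell line, to ask what changes when PPP2R2A is silenced. PPP2R2A encodes a regulatory B subunit of protein phosphatase 2A. The control group received a scramble siRNA, and the other groups received siPPP2R2A_1 (siRNA 1 below) or siPPP2R2A_2 (siRNA 2). Each group had 2 arrays, named A and B. All 3 groups were plated at 50% confluence, were given 50 nM siRNA with Lipofectamine RNAiMAX, received a second transfection 24 h later and gave RNA 24 h after that, so every group carried the effects of transfection itself. The silencing was transient, and there was no group without siRNA. Per the design text the duplicates were technical, and each p-value therefore measures only the spread between these samples. The signal is that of a whole culture, in which more RNA per cell and more expressing cells cannot be told apart.

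When amino acids run short, or when the endoplasmic reticulum, haem supply or a viral RNA calls on one of a small set of kinases, the translation factor eIF2 is phosphorylated and most protein synthesis slows. The ATF4 mRNA is then translated more, since short upstream reading frames in its leader hold it back at other times, so ATF4 protein can change with no change in its mRNA. ATF4 pairs with C/EBP family proteins and turns on genes for making, importing and charging amino acids, for glutathione supply, and for feedback and growth arrest. In tumour cells these genes are also known to follow nutrient supply and growth signalling. These arrays measured mRNA and not protein or phosphorylation.

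The DNA element through which ATF4 and C/EBP proteins act in many of these genes has the letters TGATGNAA, where N is any base, and TTNCATCA on the other strand. In the RefSeq promoter table (assembly GRCh38.p14, 250 bases before to 50 after each gene start), 29 of the 36 genes had a window. Of their 48 windows 9 held this element on either strand (18.8%), in 9 genes, against 1270 of 35116 windows of the same length over all genes (3.62%). The genes were chosen as known targets or partners of ATF4, so a higher share follows from the choice and is no result of these data. The cyclic AMP response element TGACGTCA, a related element that reads the same on both strands, was in 1 of the 48 windows (2.08%), that of PPP1R15A, and in 1.85% of all windows. Windows of 1 gene can overlap each other. The sequences below are those of the 2 called genes with a match, ASNS and CHAC1, and then of CEBPG, JDP2 and SLC1A5, which were chosen for display after their values were seen. Each is written 5′ to 3′ on the strand of its gene, and the capitals mark the match.
ASNS: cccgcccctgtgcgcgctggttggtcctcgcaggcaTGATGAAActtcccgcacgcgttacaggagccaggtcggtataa
CHAC1: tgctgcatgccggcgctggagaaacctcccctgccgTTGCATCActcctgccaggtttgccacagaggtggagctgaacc
CEBPG: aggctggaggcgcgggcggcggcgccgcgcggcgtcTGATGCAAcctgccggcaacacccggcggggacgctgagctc
JDP2: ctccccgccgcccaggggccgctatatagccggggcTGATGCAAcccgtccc
SLC1A5: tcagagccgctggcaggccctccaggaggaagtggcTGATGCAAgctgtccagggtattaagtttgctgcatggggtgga
The ASNS stretch lies at chr7:97872433-97872512 on the minus strand, and its match begins 68 bases before the start. CHAC1 is shown at chr15:40953226-40953305 on the plus strand, where the match is on the opposite strand, 209 bases before the start. The CEBPG stretch is chr19:33374035-33374112 on the plus strand, with the match 42 bases before the start. That of JDP2 is chr14:75427970-75428021 on the plus strand, 16 bases before the start. That of SLC1A5 is chr19:46784868-46784947 on the minus strand, 97 bases before the start. The element was also in windows of ATF3, SLC1A4, SLC3A2 and SLC7A1. TRIB3, the other called gene, had 3 windows and these letters were in none of them, which says nothing of other elements or of more distant sites. For comparison, 80 bases of one of its windows, chr20:381215-381294 on the plus strand, are shown with no letters marked.
TRIB3: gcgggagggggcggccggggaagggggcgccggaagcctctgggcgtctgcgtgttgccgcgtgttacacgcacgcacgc

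PPP2R2A itself was read in the brightest of its 4 probe sets, and values of the others are not given here. It had signals of 1381 and 1589 on the scramble arrays, 336 and 397 for siRNA 1, and 510.0 and 533 for siRNA 2. Both siRNAs lowered it, to 24.7% of the scramble mean with siRNA 1 and to 35.1% with siRNA 2 (adjusted p = 0.0403 and 0.0461). Here a change is a difference of group means on the scale log2(signal + 1), tested with limma and adjusted over the 12735 genes. A gene was called when its adjusted p was under 0.05 and its change was at least 1.5-fold. A fold is the ratio of the mean signals, and an interval is the 95% interval of the fitted change. Because both siRNAs were compared with the same scramble arrays, their values are set side by side and are not independent of each other.

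The arrays had median signals between 69.3 and 76.2, and duplicates correlated at 0.979 to 0.980 over all tested genes, against 0.970 to 0.978 between groups. The ratio of the 3′ to the 5′ control signal of ACTB, a measure of RNA length, was 5.43 and 5.94 for scramble, 6.52 and 7.82 for siRNA 1, and 7.47 and 12.4 for siRNA 2. Its group means moved in the same order as the members' levels described below. By array the order differed, since the ratio was higher on siRNA 1 array B than on siRNA 2 array A. The part of the ACTB ratio in the results was not tested. The GAPDH ratio lay between 0.943 and 1.02. Of 10 urothelial and epithelial markers, 9 had a probe set and all 9 were above the brightness limit, with a summed signal of 138794 and 143488 on the scramble arrays, 136799 to 142732 with siRNA 1 and 117636 to 125183 with siRNA 2. Among the epithelial markers, CDH1 had 71.1% and KRT8 65.0% of the scramble mean with siRNA 2 (adjusted p = 0.0751 and 0.0558). EPCAM and FGFR3 went the other way, at 106% and 112%, and KRT5, KRT7, KRT18, KRT19 and GATA3 lay between 80.3% and 96.3%. With siRNA 1, CDH1 had 111% and KRT8 93.6%. Of the markers of other cell types, 1 of 3 immune, 3 of 6 fibroblast and 2 of 3 endothelial markers with a probe set were above the limit. The fibroblast or mesenchymal sum was 1296 to 1328 for scramble, 1212 to 1268 for siRNA 1 and 1377 to 1408 for siRNA 2. In it VIM, vimentin, read 80.2 and 81.9 for scramble, 73.1 and 124 for siRNA 1, and 160.0 and 158 for siRNA 2 (adjusted p = 0.712 and 0.144). Of the other fibroblast markers above the limit, COL1A1 had 111% and DCN 56.7% of the scramble mean with siRNA 2. The immune sum was 38.7 to 80.1, 115 to 141 and 19.9 to 73.1 in the same order, and the endothelial sum 387 to 446, 318 to 368 and 269 to 338. CDH1, KRT8 and VIM were picked out after their values were seen, and the part of these markers in the results was not tested.

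With siRNA 2, 3 of the 35 genes rose, ASNS, CHAC1 and TRIB3, and none fell, where 0.440% of all tested genes rose and 0.597% were called in either direction. With siRNA 1, 0 of the 35 were called, against 0.393% of all genes. For the mean of both siRNAs only ASNS was called, against 0.510% called in either direction and 0.385% higher. At an unadjusted p under 0.05, 20 of the 35 were higher with siRNA 2 and 0 lower, against 12.0% and 8.76% of all genes. At the same limit 12 were higher with siRNA 1 and 2 lower, ALDH18A1 and SLC7A5, against 9.55% and 6.65% of all genes. The median change of the 35 on the log2 scale was 0.16 with siRNA 1 and 0.38 with siRNA 2, beside 0.01 and 0.02 for all tested genes. These are counts and medians of a chosen list, not a test of it.

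The adjusted p-values of these calls, 0.0461 to 0.0492, lie just under the threshold. In fits that left out any 1 of the 6 arrays, 0 of the 12735 genes were called in any comparison, PPP2R2A included, so these fits show nothing particular to the 3 genes, whose log2 changes lay between 0.86 and 1.25 there. With arrays centred on their medians 1 gene of 12735 was called with siRNA 2 and it was none of the 35. With a variance that follows the signal intensity, 7 of the 35 were called higher with siRNA 1, against 1.37% of all genes, and 9 with siRNA 2, against 2.29%.

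**Figure D1:**
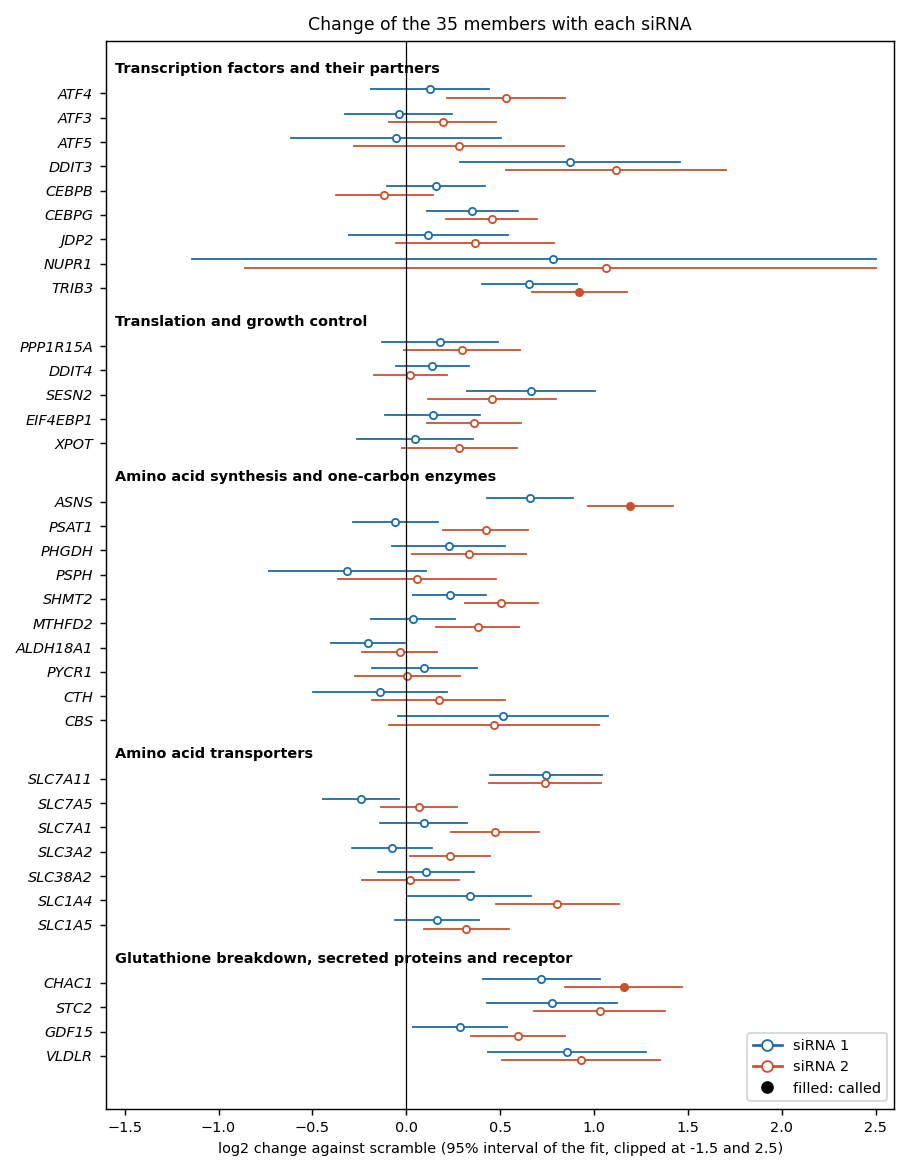
Change of each of the 35 genes against scramble on the log2 scale, with siRNA 1 in blue and siRNA 2 in red, ordered by role. Points are fitted changes from 2 arrays per group, lines are 95% intervals (clipped at the plot's limits for NUPR1), and filled points are the called genes ASNS, CHAC1 and TRIB3 with siRNA 2; most points lie to the right of 0.

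ASNS, asparagine synthetase, which makes asparagine from aspartate and glutamine, had the strongest evidence of a rise among the 35. Its signals were 2756 and 2931 on the scramble arrays, 4434 and 4537 for siRNA 1, and 6769.7 and 6251 for siRNA 2. The 3 groups did not overlap, and scramble was lowest and siRNA 2 highest. The mean was 1.58-fold the scramble mean with siRNA 1 (log2 change 0.66 ± 0.23, adjusted p = 0.0800) and 2.29-fold with siRNA 2 (1.19 ± 0.23, adjusted p = 0.0461), where ± gives the reach of the 95% interval on either side. For the mean of both siRNAs the log2 change was 0.93 (adjusted p = 0.0460). The ASNS probe set is of a type that can also bind related transcripts, and its other probe set was above the brightness limit on 0 arrays. Among the genes given by array below, those of SHMT2, PSAT1, SESN2, SLC1A4, SLC7A1, GDF15, VLDLR and GARS1 are also of such types.

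The other enzymes make serine, glycine, proline and cysteine and carry single-carbon units. With siRNA 2, 5 of the 10 synthesis enzymes measured, ASNS included, were higher at an unadjusted p under 0.05, against 12.0% of all genes. The median change of the 10 was 0.36. With siRNA 1, 2 were higher and 1 lower, against 9.55% and 6.65%, and the median was 0.07. SHMT2, which turns serine into glycine in mitochondria, gave 6921 and 6712 for scramble, 8033 and 7969 for siRNA 1, and 9573 and 9800.1 for siRNA 2. These groups did not overlap either, and the log2 changes were 0.23 ± 0.20 and 0.51 ± 0.20 (adjusted p = 0.255 and 0.0645). PSAT1, an aminotransferase of serine synthesis, read 8789.6 and 8975 for scramble, 8828 and 8243 for siRNA 1, and 11484 and 12331 for siRNA 2. Its siRNA 1 arrays overlapped scramble (log2 change -0.06 ± 0.23, adjusted p = 0.785), and its siRNA 2 arrays were above both other groups (0.42 ± 0.23, adjusted p = 0.0980).

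The remaining steps of the serine route did not move alike. PHGDH, which catalyses the first step from 3-phosphoglycerate, had log2 changes of 0.22 with siRNA 1 and 0.33 with siRNA 2. PSPH, the phosphatase of the last step, had -0.31 and 0.06. MTHFD2, a mitochondrial folate enzyme, went from a mean signal of 9360.1 ± 11.9 (SD, n = 2) with scramble to 9606 ± 618 with siRNA 1 and 12178 ± 205 with siRNA 2. None of these passed the adjusted threshold. In proline synthesis, ALDH18A1 had log2 changes of -0.20 and -0.04, and PYCR1 of 0.10 and 0.00464. Of the enzymes that turn homocysteine into cysteine, CBS had 0.52 and 0.47 and CTH -0.14 and 0.17, and the intervals of both genes held 0 with both siRNAs.

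The ATF4 transcript itself read 14869 and 14093 for scramble, 17388 and 14353 for siRNA 1, and 20512 and 21304 for siRNA 2. With siRNA 1 array B lay between the scramble arrays, and with siRNA 2 both arrays were above all others. The log2 change was 0.13 ± 0.31 with siRNA 1 (adjusted p = 0.661) and 0.53 ± 0.31 with siRNA 2 (adjusted p = 0.113), so neither was called. Without siRNA 1 array A the siRNA 1 change was -0.01.

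DDIT3, which encodes CHOP, a C/EBP family factor tied to cell death under lasting stress, read 449 and 346 for scramble, 639 and 814 for siRNA 1, and 744 and 983 for siRNA 2. All 4 knockdown arrays were above the scramble arrays, and the siRNAs overlapped. The means were 1.83-fold and 2.17-fold that of scramble (log2 changes 0.87 ± 0.59 and 1.11 ± 0.59, adjusted p = 0.195 and 0.0951). The spread between duplicates was wide, and DDIT3 was not called despite a change close to that of ASNS.

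TRIB3, a pseudokinase that is induced by ATF4 and CHOP and restrains both, read 917 and 839 for scramble, 1327 and 1439 for siRNA 1, and 1610.2 and 1719 for siRNA 2. The 3 groups did not overlap. It rose with siRNA 2 to 1.90-fold the scramble mean (log2 change 0.92 ± 0.25, adjusted p = 0.0492), and with siRNA 1 the value was 1.58-fold (0.66 ± 0.25, adjusted p = 0.0822). CEBPG, a C/EBP protein that pairs with ATF4, read 1419 and 1453 for scramble, 1928 and 1742 for siRNA 1, and 1905 and 2037 for siRNA 2. Its knockdown arrays were all above scramble and the siRNAs overlapped (log2 changes 0.35 ± 0.24 and 0.46 ± 0.24, adjusted p = 0.201 and 0.0968).

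None of the other factors was called. ATF3, a repressor induced by many stresses, had log2 changes of -0.04 and 0.19, and ATF5, a factor translated in the same way as ATF4, had -0.06 and 0.28. CEBPB, another C/EBP family factor, had 0.16 and -0.12, and JDP2, a repressor of the AP-1 family, 0.12 and 0.37. NUPR1, a small stress-induced chromatin protein, was dim, with signals from 27.8 to 144 and above the brightness limit on 4 of 6 arrays. Its log2 changes were 0.78 ± 1.92 and 1.07 ± 1.92, larger than those of TRIB3 but with intervals that held 0. Over the 9 factors and partners, 1 was called with siRNA 2, where 0.440% of all genes were called higher. At an unadjusted p under 0.05, 3 were higher with siRNA 1 and 4 with siRNA 2, against 9.55% and 12.0% of all genes.

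**Figure D2:**
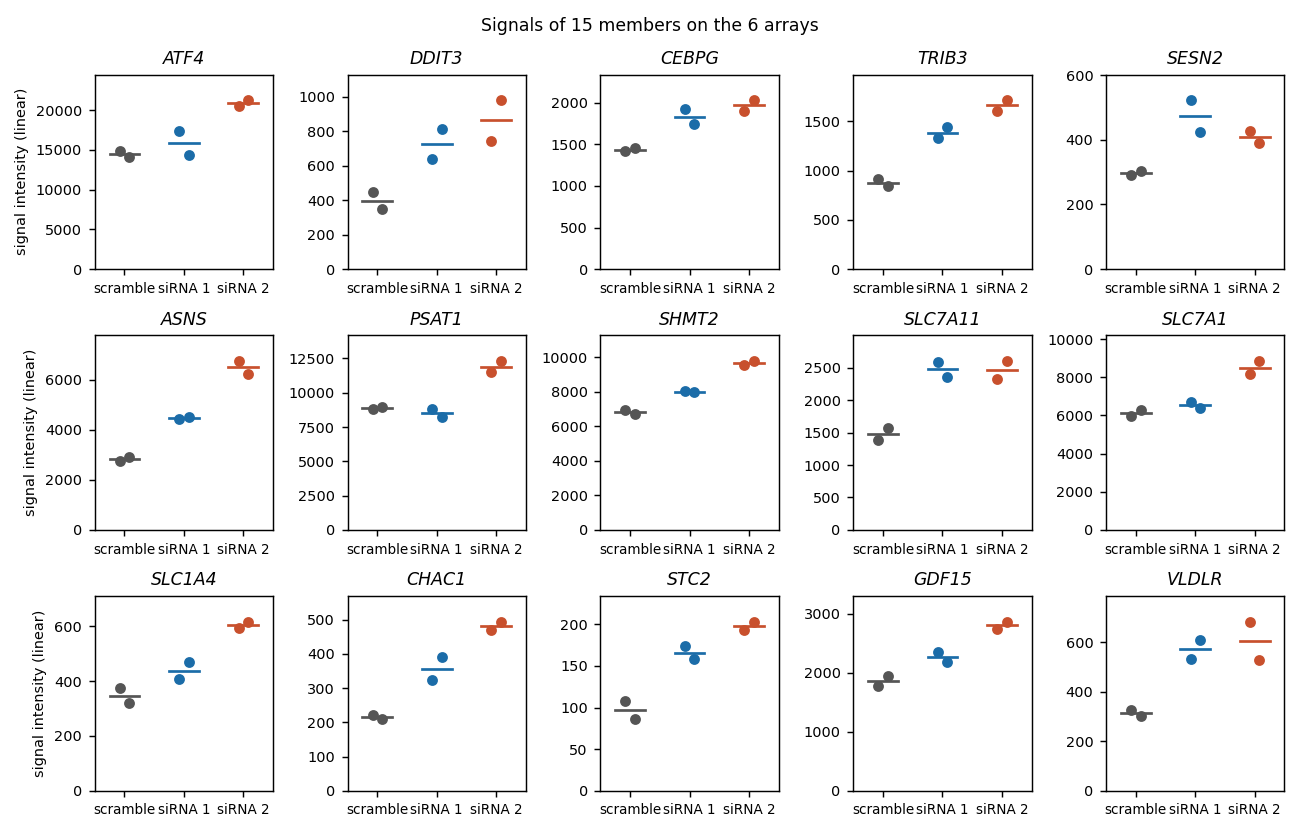
Deposited signal intensity (linear scale from 0) of 15 genes on the 6 arrays, 2 per group, with grey for scramble, blue for siRNA 1 and red for siRNA 2. Points are arrays and lines are group means; the ASNS, TRIB3 and CHAC1 points step up from scramble to siRNA 1 to siRNA 2, whereas those of SLC7A11 are alike with both siRNAs.

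In the group that controls translation and growth, SESN2, which senses leucine and holds back the growth kinase complex mTORC1, read 292 and 302 for scramble, 524 and 424 for siRNA 1, and 427 and 391 for siRNA 2. All 4 knockdown arrays were above scramble (log2 changes 0.66 ± 0.34 and 0.46 ± 0.34, adjusted p = 0.133 and 0.155). It was among the 7 of the 35 genes with a higher mean for siRNA 1 than for siRNA 2. PPP1R15A, the subunit that directs a phosphatase to eIF2 and so ends the response, had log2 changes of 0.18 and 0.30. Its other probe set, dimmer but above the brightness limit on all 6 arrays, gave 0.54 and 0.49. EIF4EBP1, a repressor of cap-dependent translation, had 0.14 and 0.36. DDIT4, another brake on mTORC1, had 0.14 and 0.02, and XPOT, the exporter of tRNA from the nucleus, 0.05 and 0.28. None of the 5 was called, against 0.393% of all genes with siRNA 1 and 0.597% with siRNA 2.

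Of the 7 transporters none was called either, against 0.393% of all genes with siRNA 1 and 0.597% with siRNA 2. At an unadjusted p under 0.05, 5 were higher with siRNA 2, against 12.0% of all genes. With siRNA 1, 2 were higher and 1 lower, against 9.55% and 6.65% of all genes. SLC7A11, the cystine importer that feeds glutathione synthesis, read 1393 and 1567 for scramble, 2594 and 2362 for siRNA 1, and 2330.1 and 2607 for siRNA 2. Both siRNAs gave 1.67-fold the scramble mean (log2 changes 0.74 ± 0.30 and 0.74 ± 0.30, adjusted p = 0.0851 and 0.0695). SLC1A4, a carrier of alanine, serine and cysteine, read 374 and 319 for scramble, 407 and 468 for siRNA 1, and 593 and 616 for siRNA 2. The groups were separate, and the log2 changes were 0.34 ± 0.33 and 0.81 ± 0.33 (adjusted p = 0.296 and 0.0695).

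SLC7A1, the importer of arginine and lysine, read 5966 and 6304 for scramble, 6689 and 6391 for siRNA 1, and 8157 and 8867 for siRNA 2. Both siRNA 2 arrays were above all others (log2 changes 0.09 ± 0.23 and 0.47 ± 0.23, adjusted p = 0.665 and 0.0877). The partners SLC7A5 and SLC3A2, which together carry leucine and other large amino acids, were each lower than scramble on both siRNA 1 arrays and higher on both siRNA 2 arrays. For SLC7A5 the log2 changes were -0.24 and 0.07, and for SLC3A2 -0.08 and 0.23. The glutamine carriers SLC38A2 and SLC1A5 had 0.10 and 0.02, and 0.16 and 0.32.

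The 4 genes of glutathione breakdown, secreted proteins and a receptor had the highest medians of the roles, 0.75 with siRNA 1 and 0.98 with siRNA 2. All 4 were higher at an unadjusted p under 0.05 with each siRNA, against 9.55% and 12.0% of all genes. CHAC1, an enzyme that breaks glutathione down, read 222 and 209.5 for scramble, 323 and 390.3 for siRNA 1, and 470.2 and 494 for siRNA 2. The groups did not overlap, and CHAC1 rose with siRNA 2 to 2.24-fold (log2 change 1.16 ± 0.31, adjusted p = 0.0490), beside 1.66-fold with siRNA 1 (0.72 ± 0.31, adjusted p = 0.0996). STC2, a secreted glycoprotein of the stress response, read 107 and 86.8 for scramble, 174 and 158 for siRNA 1, and 193 and 203 for siRNA 2. Its groups were separate too (log2 changes 0.77 ± 0.35 and 1.03 ± 0.35, adjusted p = 0.107 and 0.0571).

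GDF15, a secreted hormone that reports cell stress and curbs appetite, read 1772 and 1949 for scramble, 2359 and 2178 for siRNA 1, and 2748 and 2866 for siRNA 2. The groups did not overlap (log2 changes 0.29 ± 0.25 and 0.59 ± 0.25, adjusted p = 0.264 and 0.0740). VLDLR, a receptor for lipoproteins and reelin, read 327 and 302 for scramble, 532 and 609.9 for siRNA 1, and 683 and 526 for siRNA 2. Its knockdown arrays were all well above scramble, and the siRNAs overlapped (log2 changes 0.86 ± 0.42 and 0.93 ± 0.42, adjusted p = 0.124 and 0.0789).

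Counted over all 35 genes, both siRNA 1 arrays were above both scramble arrays for 21, against 26.7% of all tested genes, and below both for 4, against 22.7%. Both siRNA 2 arrays were above both scramble arrays for 28, against 28.4% of all genes. By array, the median of the 35 genes lay 0.13 and 0.18 above the scramble mean on the log2 scale for siRNA 1 A and B, and 0.36 and 0.40 above it for siRNA 2 A and B. The scramble arrays lay at -0.02 and 0.02. The ACTB ratio was highest on siRNA 2 array B. Without that array the median siRNA 2 change was 0.36 in place of 0.38. The siRNA 2 array that remained had a ratio of 7.47, above the scramble ratios of 5.43 and 5.94. The ratio and the siRNA 2 group therefore cannot be told apart in this way.

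**Figure D3:**
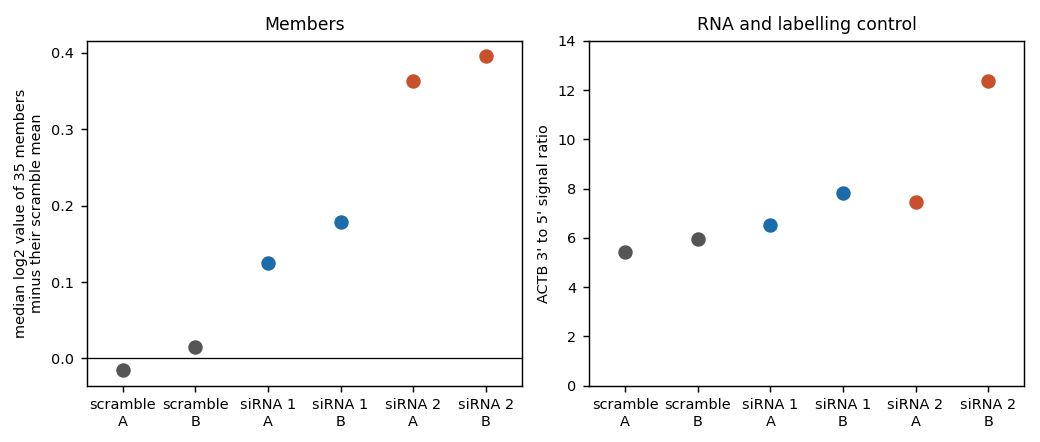
Left, the median over the 35 genes of their log2 value minus their mean on the scramble arrays, for each of the 6 arrays. Right, the ACTB 3′ to 5′ signal ratio of the same arrays. The siRNA 2 arrays have medians of 0.36 and 0.40 and ratios of 7.47 and 12.4, both ratios above those of the scramble arrays.

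The siRNAs were also compared with each other directly. The scramble arrays do not enter this difference, but they share in the estimate of the spread behind its p-values and intervals. With only the 4 siRNA arrays in the fit, 0 of 12735 genes were called and the lowest adjusted p of the 35 was 0.176. None of the 35 genes was called in it, against 0.212% of all genes, and the lowest adjusted p was that of ASNS. At an unadjusted p under 0.05, 12 were lower with siRNA 1 than with siRNA 2, against 9.53% of all genes, and 1 was higher, CEBPB, against 9.16%. Both siRNA 2 arrays were above both siRNA 1 arrays for 21 of the 35, against 26.5% of all genes. The median difference, siRNA 1 minus siRNA 2, was -0.25 on the log2 scale, beside -0.01 for all genes. PPP2R2A, in the brightest of its 4 probe sets, also had its lower signals with siRNA 1. That difference was not called (log2 difference -0.51, adjusted p = 0.158). Most of the 35 genes were thus higher with the siRNA that left more signal in this PPP2R2A probe set, and any link between the levels was not tested.

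The 3 genes with an unadjusted p under 0.01 for this difference were ASNS, PSAT1 and SLC7A1. Their differences were -0.54 for ASNS (interval -0.76 to -0.31, adjusted p = 0.0885), -0.48 for PSAT1 (interval -0.71 to -0.25, adjusted p = 0.0994) and -0.38 for SLC7A1 (interval -0.61 to -0.15, adjusted p = 0.141). ATF4 differed by -0.40 (interval -0.72 to -0.09, adjusted p = 0.193). No difference was detected for SLC7A11, at 0.01 (interval -0.29 to 0.30), or for VLDLR, at -0.07 (interval -0.49 to 0.35), and these intervals still allow differences as large as those of PSAT1 for VLDLR but not for SLC7A11.

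Probe sets other than the brightest give a second reading of some genes. Of 37 such probe sets, 30 were above the brightness limit, in 21 genes, and 24 of the 30 had the sign of the brightest with siRNA 1 and 26 with siRNA 2. For TRIB3 the other probe set gave log2 changes of 1.34 and 1.08. It was dim, above the limit on 4 arrays with 42.0 and 75.1 for scramble, and its order of the siRNAs was reversed. For STC2 the other probe set, above the limit on 5 arrays, gave 0.43 and 1.09. For SHMT2 the other readings were 0.16 and 0.62 in one and 0.29 and 0.56 in another, and for CEBPG 0.23 and 0.51. The other probe set of PSAT1 gave -0.27 and 0.22, and that of MTHFD2 0.10 and 0.15. Both were above the limit on all 6 arrays. With siRNA 2 these changes were smaller than those of the brightest probe sets, 0.42 for PSAT1 and 0.38 for MTHFD2. In the dimmer MTHFD2 probe set the siRNA 2 arrays lay between the scramble arrays. The second probe set of SESN2 gave 0.49 and 0.71, so the order of the siRNAs for SESN2 differed between its probe sets. For GDF15 the values were 0.28 and 0.68, from a probe set above the limit on 5 arrays.

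The transporters were less uniform. Of the probe sets of SLC1A4 beside the brightest, 3 gave 0.70 and 1.24, 0.79 and 1.30, and 1.13 and 1.21. The last of these was above the limit on 4 arrays. The fourth, above the limit on 3 arrays, gave -1.68 and 0.25. SLC7A11 had 0.74 and 0.68 in one and 0.12 and 0.29 in another. For SLC7A1 one probe set, above the limit on all 6 arrays, went against the brightest with -0.23 and -0.39, another gave 0.19 and 0.15, and a dim one, above the limit on 2 arrays, gave -1.87 and 0.35, so its direction depends on the probe set. PSPH was also split with siRNA 2, at -0.33 and -0.72 in its other probe sets. ALDH18A1, lower with siRNA 1 at -0.20 in its brightest probe set, gave 0.05 in its other, above the limit on all 6 arrays. ATF4, DDIT3, CHAC1 and VLDLR each had 1 probe set.

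**Figure D4:**
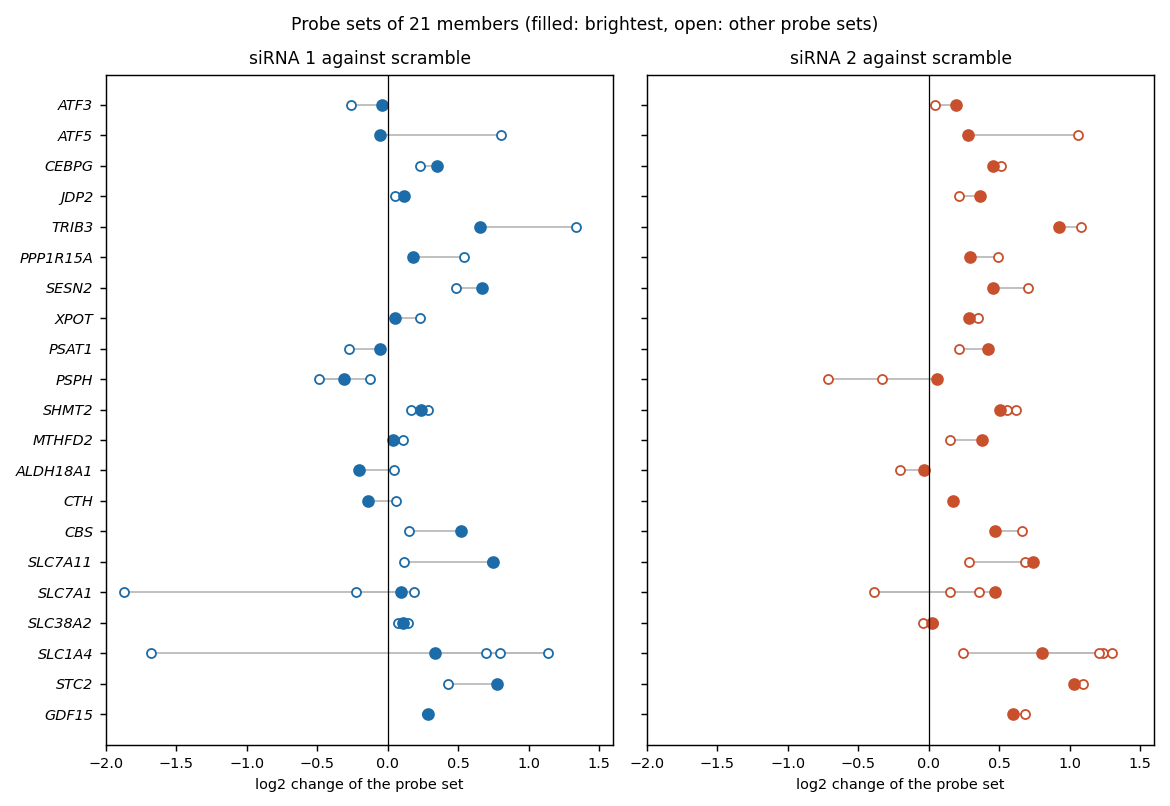
Log2 change against scramble of every probe set above the brightness limit, for the 21 genes with more than 1, with siRNA 1 on the left and siRNA 2 on the right. Filled points are the brightest probe set and open points the others; those of TRIB3, STC2 and SHMT2 lie on the same side of 0, and those of SLC7A1 lie on both sides.

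The rest of the pathway was covered by 76 further genes in 4 lists, of which 67 were tested. In the list of kinases, eIF2 and its regulators, which act before ATF4, 20 were tested. Of these 20, 0 were called, against 0.393% of all genes with siRNA 1 and 0.597% with siRNA 2. Their median changes were -0.06 with siRNA 1 and -0.02 with siRNA 2. At an unadjusted p under 0.05, 2 were higher and 3 lower with siRNA 1, and 3 higher and 3 lower with siRNA 2. Of all genes 9.55% were higher and 6.65% lower with siRNA 1, and 12.0% and 8.76% with siRNA 2. DNAJC3, an inhibitor of eIF2 kinases that resides in the endoplasmic reticulum, had a mean signal of 2370.3 ± 306 for scramble, 3792 ± 93.1 for siRNA 1 and 3966 ± 188 for siRNA 2 (SD, n = 2; adjusted p = 0.108 and 0.0723). PPP1R15B, the constant counterpart of PPP1R15A, had 3274 ± 55.2, 2692 ± 13.5 and 2171 ± 184 (adjusted p = 0.261 and 0.0701). IMPACT, an inhibitor of the amino acid sensor GCN2, had 872 ± 112, 476 ± 6.10 and 788 ± 52.6 (adjusted p = 0.0807 and 0.571).

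Of the cytosolic aminoacyl-tRNA synthetases, which charge tRNAs with amino acids, 17 were tested. With siRNA 1, 6 were higher at an unadjusted p under 0.05 and 0 lower, against 9.55% and 6.65% of all genes. With siRNA 2, 7 were higher and 0 lower, against 12.0% and 8.76%. The medians were 0.14 and 0.21. GARS1, the glycine enzyme, rose with siRNA 2, from 5446 and 4902 with scramble to 9800.2 and 9849.6 (log2 change 0.93 ± 0.23, adjusted p = 0.0461). With siRNA 1 it read 7579 and 7401, between the other groups (0.54 ± 0.23, adjusted p = 0.0983). CARS1, the cysteine enzyme, had log2 changes of 0.45 and 0.61, and WARS1, the tryptophan enzyme, 0.55 and 0.49, neither of them called. GARS1 was the only called gene of these 17, beside 0.440% of all genes called higher with siRNA 2.

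The remaining lists had medians near 0, with single genes further from it. Of all genes 0.393% were called with siRNA 1 and 0.597% with siRNA 2. Among 16 other amino acid and folate enzymes the medians were 0.07 and -0.01, and 0 were called. At an unadjusted p under 0.05, 2 were higher and 0 lower with siRNA 1, and 1 higher and 2 lower with siRNA 2. The shares of all genes were 9.55% and 6.65% with siRNA 1, and 12.0% and 8.76% with siRNA 2. PYCR3, a further enzyme of proline synthesis, had log2 changes of -0.33 and -0.45. Among 14 other amino acid transporters the medians were 0.04 and 0.12, and 0 were called. SLC36A1, a lysosomal amino acid exporter, had 0.57 and 1.11 (adjusted p = 0.325 and 0.0990), and SLC6A14, a broad amino acid importer, had -0.69 and -0.67 (adjusted p = 0.116 and 0.0838). SLC7A7, part of a carrier of basic amino acids, had 1.31 and 1.14 but was above the brightness limit on only 3 arrays.

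**Figure D5:**
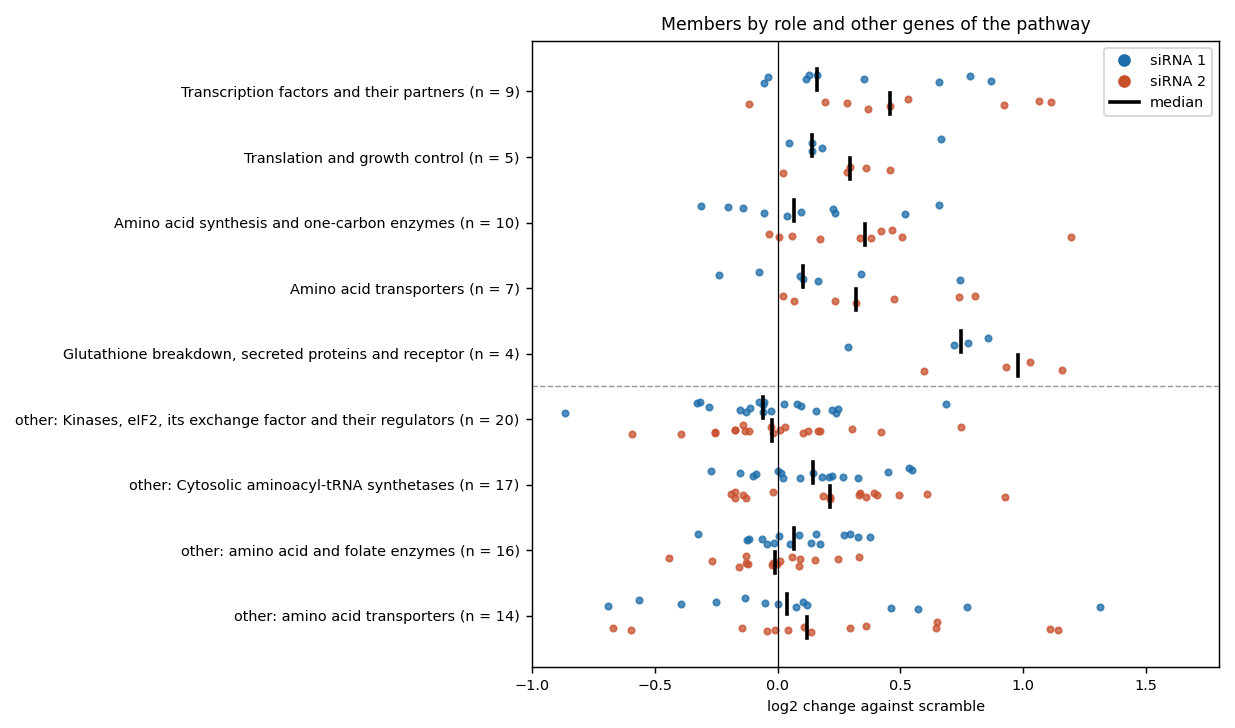
Log2 change against scramble of the 35 genes by role (above the dashed line) and of 67 other pathway genes by list (below it), with siRNA 1 in blue and siRNA 2 in red. Each point is a gene and each black bar a median; the medians of the glutathione and secreted group (0.75 and 0.98) are the highest, and those of the eIF2 group (-0.06 and -0.02) lie next to 0.

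The 9 genes with the element TGATGNAA in a promoter window had a median siRNA 2 change of 0.46, with all 9 above 0, from 0.19 to 1.19. The 20 measured genes with a window but no match had a median of 0.36, with 18 above 0, from -0.12 to 1.11. With siRNA 1 the medians were 0.16 and 0.15. These ranges overlap almost fully, and the values are given as a description of the sequences shown above.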

How the data were processed

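The authors deposited linear signal intensity per probe set (54675) for 6 arrays. They were made with Affymetrix Expression Console, per the submitters' processing notes. Version and algorithm: not given in the sources used here. The mean after trimming 2% from each tail was 500.067 to 500.07 on every array, and the number of arrays limits the precision. Values were taken as log2(signal + 1). Symbols came from the platform annotation (41091 probe sets with 1 symbol, 1801 with several, 11721 with none; of the first, 41037 matched RefSeq by Entrez identifier). Each gene was represented by its brightest probe set and tested if that exceeded the 50th percentile of all probe sets on 2 or more arrays. limma 3.58.1 (R 4.3.3) was fitted to all 6 arrays with 1 coefficient per group (lmFit, eBayes; 3 residual and 1.72 prior degrees of freedom), with Benjamini-Hochberg adjustment over all tested genes. Figures used matplotlib 3.10.9 in Python 3.11.15.

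The members and gene lists were chosen with earlier results of these data known. Array values are given for ATF4, DDIT3, members called in any contrast, members at an unadjusted p under 0.05 in the same direction with both siRNAs, and members whose siRNAs differed at a p under 0.01. Of other pathway genes, those called and up to 3 per list with the largest mean change at p under 0.05 are named. A sample title of siRNA 1 with a variant spelling of PPP2R2A was placed by the siRNA's number. On simulated data of 12735 genes, the siRNA 2 comparison called 10.4%, 46.3% and 78.8% of genes simulated with changes of 1.5-fold, 2-fold and 4-fold, and 2 unchanged genes. For siRNA 1 the shares were 13.4%, 49.3% and 81.8%, with 3.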

Additional observations from a re-analysis of the deposited data

How the results depend on the processing

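Of 1549 values from 100 results under the alternatives, 1434 kept their direction and their side of the threshold. Most of the 100 results were not called in the report, so most of these values could only stay uncalled or gain a call. The 4 called results lost their call in 45 values. Members called with siRNA 2 (3 in the report) and with the mean of both (1) were 0 and 0 with arrays centred on their medians, with no filter on dim probe sets, with probe sets averaged per gene, without probe set types s and x, and when each array was left out (range 0 to 0). Other pathway genes called with siRNA 2 (1 in the report) were 0 in all of these. With only the groups of the contrast both siRNA 2 counts were 0. Over all genes, 0 were called in any comparison with no filter, with averaged probe sets, with only the groups of the contrast or with an array left out, and without types s and x 0 of 10023 were called with siRNA 2, so these zeros are not particular to the members. With no filter more genes were tested, but members at an unadjusted p under 0.05 were also fewer. They were 18 against 20 with siRNA 2 and 14 against 19 for the mean. Fewer arrays or groups mean fewer degrees of freedom. The cause of the losses was not tested. Centring moved the siRNA 2 median of all genes from 0.016 to 0.041 and called 1 gene of all 12735, against 76. Quantile normalization gave 3 members with siRNA 2 and 2 with the mean, and a pseudocount of 16 gave 4 and 3, with 1 other pathway gene for the mean, where 162 and 102 of all genes were called. With genes above the 50th percentile on all 6 arrays (10868 tested), 5, 9 and 7 members were called with siRNA 1, siRNA 2 and the mean, and 3, 6 and 3 other pathway genes, with 1 between the siRNAs, where 244, 399 and 254 of all genes were called, and 289 between the siRNAs. The intensity trend gave 7, 9 and 7 members and 2, 5 and 3 other pathway genes, with 1 between the siRNAs, where 299, 472, 278 and 362 of all genes were called.

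The replicate letters did not pair the arrays: deviations of arrays with the same letter correlated at -0.031, 0.014 and 0.038 between groups. In a paired fit with the replicate block, members called were 0 with siRNA 2 and 0 with the mean, and other pathway genes 0 with siRNA 2, where 0 of all 12735 genes were called in any comparison.

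With probe sets averaged per gene the direction turned for ATF5 (0.373) and SLC7A1 (-0.454) with siRNA 1, for PSPH with siRNA 2 (-0.329), for SLC7A1 with the mean (-0.154), and for SESN2 (-0.00744) and SLC7A11 (-0.0364) between the siRNAs, the last also with centring (-0.0143). Without types s and x it turned for SLC7A1 with siRNA 1 (-0.227), siRNA 2 (-0.388), the mean (-0.308) and between the siRNAs (0.161), and for SLC1A4 with siRNA 1 (-1.68) and the mean (-0.715), where dimmer probe sets stood in. With 1 array left out, the member median ranged from 0.362 to 0.472 with siRNA 2 and 0.24 to 0.289 with the mean, both highest without scramble B. The direction of small changes turned with 1 array left out. With siRNA 1 the ranges were -0.0123 to 0.264 for ATF4, -0.359 to 0.248 for ATF5, -0.0426 to 0.276 for JDP2, -0.0297 to 0.102 for MTHFD2, -0.058 to 1.62 for NUPR1 and -0.0666 to 0.16 for XPOT. With siRNA 2 they were -0.0231 to 0.583 for ATF5, -0.00177 to 0.0424 for DDIT4, -0.105 to 0.22 for PSPH, -0.0726 to 0.0819 for PYCR1 and -0.0777 to 0.121 for SLC38A2. Between the siRNAs they were -0.0747 to 0.0874 for SLC7A11 and -0.261 to 0.114 for VLDLR.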
